A study of Mus musculus with 2 samples.

Results

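The serpins examined here are the genes of the serine protease inhibitor superfamily that carried reads in mouse breast tumour tissue. Members were the rows of the gene count table whose symbol is Serpin followed by a clade letter from a to i and a number, with a combined count of at least 20 over both libraries. Of 35602 rows in the table, 63 had such a symbol, 35 of these reached the minimum, and 34 are described. In the study, a PD-1 inhibitor was injected intraperitoneally into mice with breast tumours, alone or together with acupuncture, and the tumour RNA was sequenced. PD-1 is an inhibitory receptor on T cells that antibodies against it release, and the stated purpose was to learn what acupuncture adds to that treatment. Each condition is 1 library, called here the PD-1 inhibitor library and the acupuncture library, and both conditions include the inhibitor. The sources used here name neither strain, age, tumour model, number of animals behind a library nor acupuncture scheme. With 1 library per condition there is no replicate check: each ratio compares these libraries and not the treatments, and its interval covers counting error only.

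Serpins fold into a metastable shape with an exposed reactive centre loop that a target protease attacks as bait. Cleavage of the loop drags the protease across the inhibitor and destroys it, so each molecule is used once. Extracellular clades control clotting, fibrinolysis, complement and neutrophil proteases, while clade B members act mostly inside cells, where they neutralise granule proteases that leak into the cytosol. A few members, among them the collagen chaperone Serpinh1 and the angiogenesis inhibitor Serpinf1, no longer inhibit proteases.

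The PD-1 inhibitor library held 105728292 gene counts and the acupuncture library 60752043, so the first was 1.74 times deeper. Levels are given as CPM after edgeR's TMM scaling, that is, as read counts per 1000000 reads of the scaled library (scaled CPM), and a ratio is the acupuncture level divided by the PD-1 inhibitor level with an exact (Clopper-Pearson) 95% interval. The calls used below, higher and lower, need a difference of 2-fold or more and an interval that does not include 1. The labelled tissue was checked on 14 mammary epithelial markers, all detected, whose summed level was 4449 scaled CPM in the PD-1 inhibitor library and 3066 in the acupuncture library. Krt8, the most abundant of them, stood at 1564 and 1060. The libraries differed widely in cell type markers. In that order of libraries, summed T cell markers stood at 24.4 and 137 scaled CPM, B cell markers at 4.07 and 145 and lymph node markers at 13.4 and 227. The lymph node list is not stroma alone. It holds the lymphocyte genes Lta and Ltb, and it shares Fcer2a and Cr2 with the B cell list. Ltb by itself stood at 10.2 and 19.6 scaled CPM. Adipocyte markers stood at 572 and 2120 and skeletal muscle markers at 269 and 2342. Neutrophil markers went the other way, from 530 to 151 scaled CPM, with 9 of 12 lower. In bulk tissue, fewer cells of a type and less RNA per cell cannot be told apart, and the part of these differences in the serpin values was not tested.

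Of the 34 serpins, 14 were at least 2-fold higher in the acupuncture library, 2 were at least 2-fold lower and 18 lay between. Over all 18687 rows with the same minimum count, 9.21% were called higher and 4.9% lower by the same rule. The median log2 ratio of the 34 was 0.73, against 0.0003 over all those rows. Of the 14, 5 are near-identical Serpina1 copies, and with copies of at least 90% coding identity summed, 9 of 29 units were called higher and 2 lower. All 13 clade A members had a ratio above 1, and 9 of them were called higher. Of 13 clade B members, 3 were called higher and 2 lower. When levels were instead scaled so that the epithelial markers had a median log2 ratio of 0, 21 serpins were called higher and 1 lower, against 19.4% and 1.89% of all rows, and the median of all rows moved by 0.54 on the log2 scale.

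**Figure D1:**
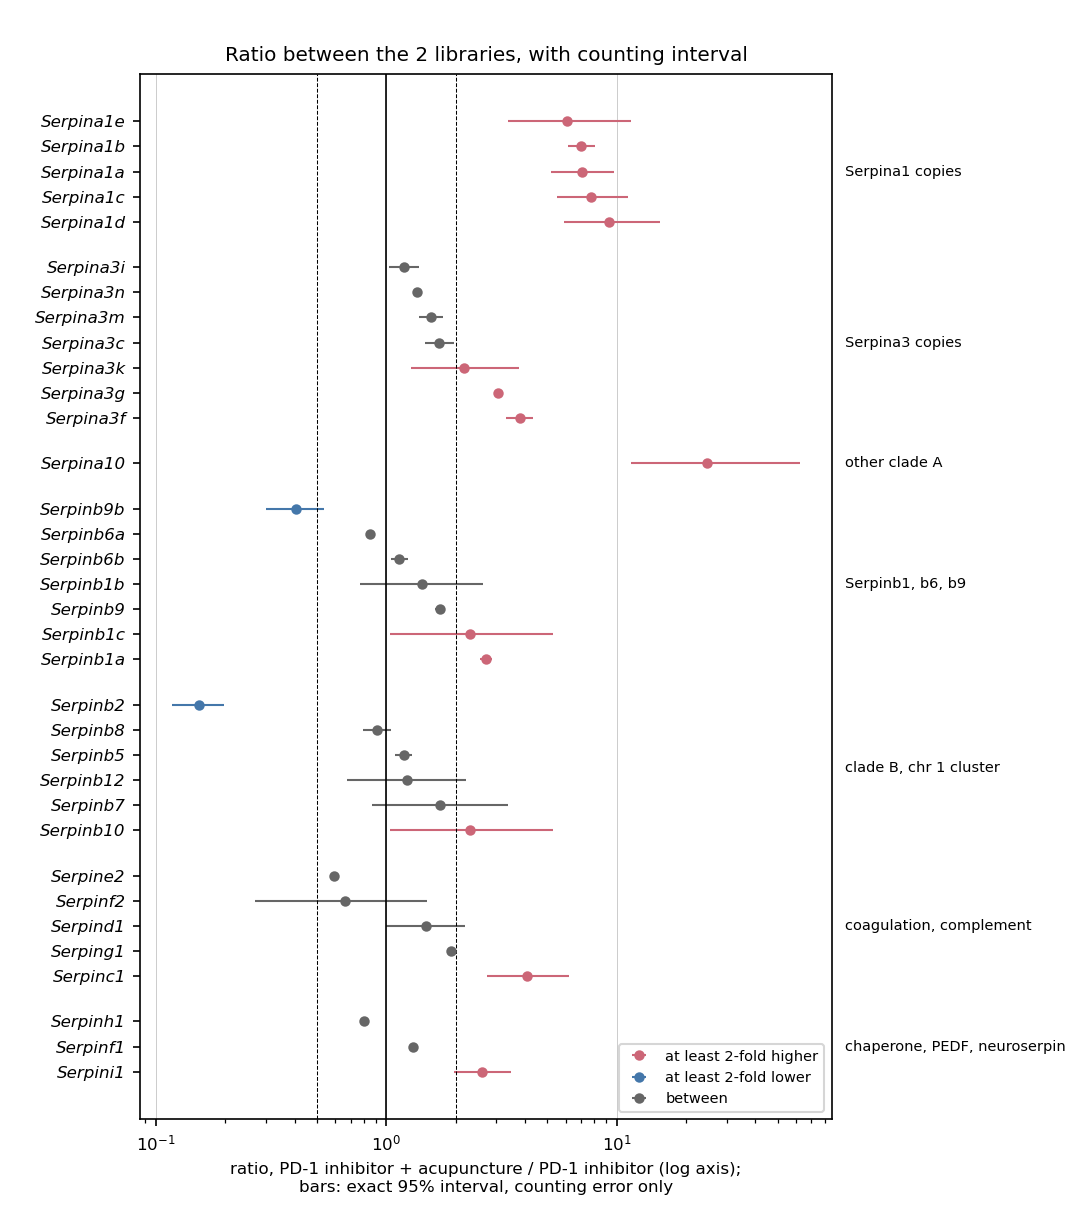
Acupuncture to PD-1 inhibitor ratio of scaled CPM for each of the 34 serpins on a log axis, grouped by role; points are the ratios of 1 library per condition and bars are exact 95% counting intervals. All 5 Serpina1 copies sit between 6.06 and 9.29, Serpina10 lies farthest to the right at 24.6, and Serpinb2 lies farthest to the left at 0.154.

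More members were called higher than lower, while their summed level was nearly the same in both libraries. Over all 18687 rows that met the minimum, the ratio of the sums was 0.932. Summed over the 34 serpins, the level was 2236 scaled CPM in the PD-1 inhibitor library and 2177 in the acupuncture library, a ratio of 0.974. Serpinh1, Serpine2 and Serpinb6a together dominated that sum. Their shares were 39.8%, 20.2% and 16.4% in the PD-1 inhibitor library, and 32.5%, 12.4% and 14.2% in the acupuncture library. Each of these 3 had a ratio below 1, and without them the sum was 529 and 890 scaled CPM, a ratio of 1.68. The direction of these members depended on the scaling. With levels scaled to the epithelial markers, Serpinh1 had a ratio of 1.17, Serpinb6a one of 1.24 and Serpine2 one of 0.869. Divided by transcript length, Serpinh1 stood highest in both libraries, at 391 and 312 scaled CPM per kilobase, followed by Serpinb6a at 243 and 206 and Serpine2 at 205 and 122. Below these the order differed between the libraries. Serpina3n came next in the PD-1 inhibitor library at 81.0 scaled CPM per kilobase, ahead of Serping1 at 60.8, and in the acupuncture library Serping1 at 116 was ahead of Serpina3n at 110. Serpinf1 and Serpina3g followed in the same order in both libraries, but lay at 53.4 and 22.2 in the first and close together at 69.7 and 68.0 in the second.

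**Figure D2:**
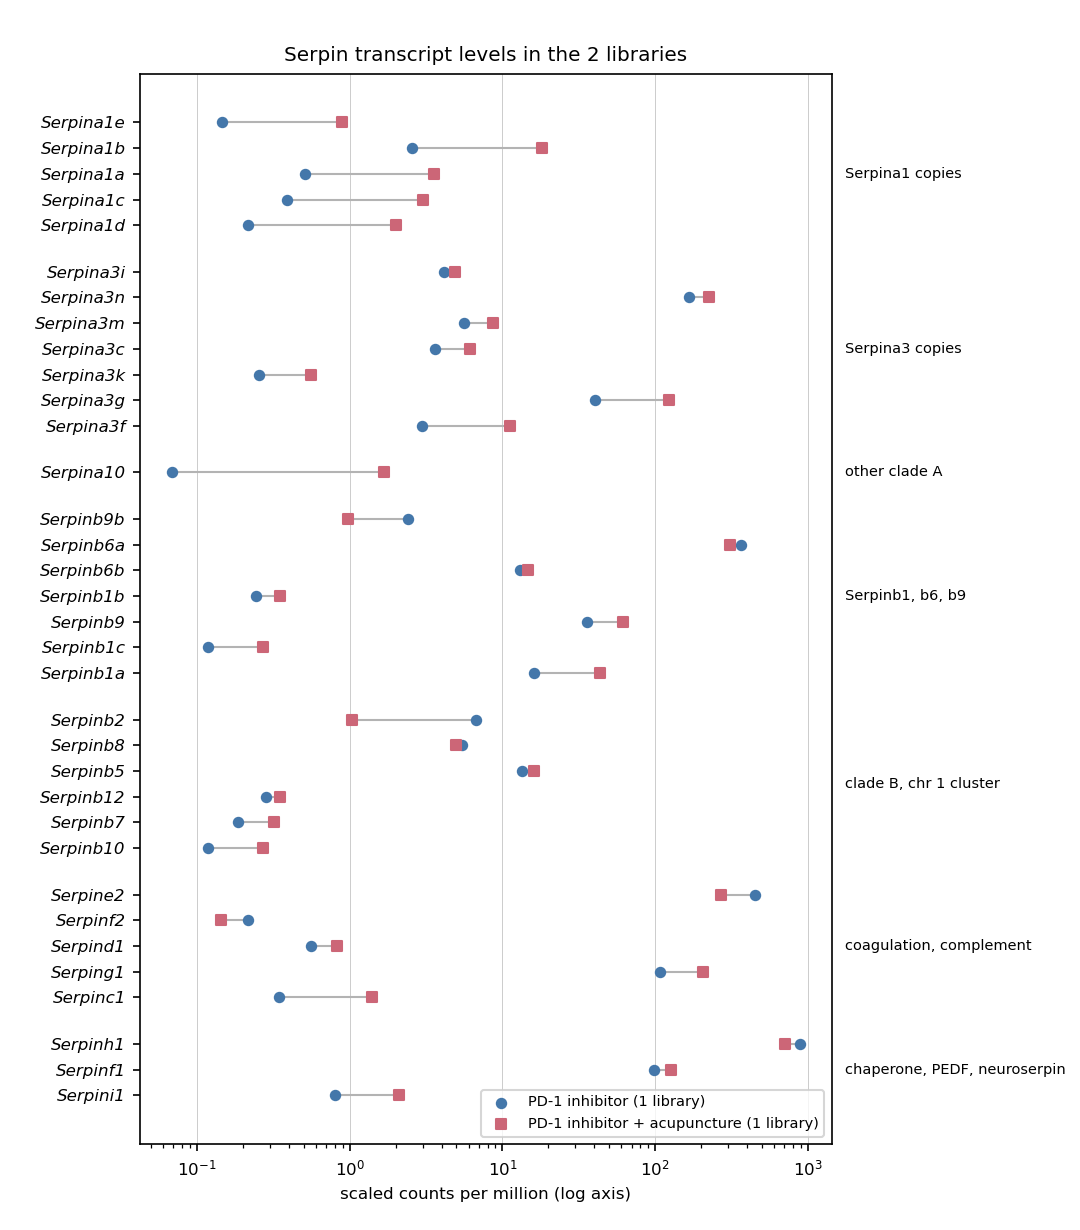
Scaled CPM of the 34 serpins in each of the libraries on a log axis, grouped by role, with a blue circle for the PD-1 inhibitor library and a red square for the acupuncture library. The most abundant members, such as Serpinh1 at 889 and 709, have points that nearly touch, while the Serpina1 copies and Serpina10 have low levels in both libraries and points far apart.

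Serpine2 and Serpinf2, which act on thrombin, urokinase or plasmin outside cells, had ratios below 1 that did not reach 2-fold. Serpine2, protease nexin-1, which inhibits thrombin and urokinase at cell surfaces, had 46209 and 16925 counts, or 453 and 269 scaled CPM. Its ratio of 0.594 (0.584 to 0.605) did not reach 2-fold. The level was thus lower in the acupuncture library, with a narrow counting interval. Serpinf2, which encodes the plasmin inhibitor alpha-2-antiplasmin and is made mainly in liver, had only 22 and 9 counts, and its ratio of 0.664 (0.269 to 1.50) was not distinguishable from 1 at this depth.

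The proteases and receptors these serpins meet did not share a direction. Of 20 tested genes of plasminogen activation and coagulation, 3 were called higher, 2 lower and 15 neither, with a median log2 ratio of -0.06. Plau, the urokinase that Serpine2 can inhibit, stood at 230 and 225 scaled CPM, a ratio of 0.976 (0.956 to 0.997). Its receptor Plaur had a ratio of 0.587 (0.568 to 0.607) and the tissue activator Plat one of 0.805 (0.771 to 0.840). Urokinase RNA was therefore nearly level between the libraries. Vtn encodes vitronectin, an adhesive protein of plasma and matrix, and its 122 and 605 counts gave a ratio of 8.05 (6.61 to 9.86). F10, the zymogen of coagulation factor X, had 1358 and 229 counts and was 3.65-fold lower (3.18 to 4.22). Vldlr, a receptor that takes up protease-serpin complexes, was 2.74-fold higher (2.48 to 3.02), and Lrp1, a larger receptor of the same family and the most abundant gene of the list, had a ratio of 0.784 (0.773 to 0.794). The list held macrophage and endothelial genes as well as liver genes. Summed macrophage markers stood at 8586 and 5420 scaled CPM, with 2 of 12 called lower, and summed endothelial markers at 487 and 386, with 1 of 12 called lower, and their part in the values of the list was not tested.

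Serpina10, Serpinc1 and Serpind1, plasma inhibitors of thrombin or factor Xa, were scarce, and the first and the second of them were called higher with acupuncture. Serpina10, which encodes the protein Z-dependent inhibitor of factor Xa, had 7 counts in the PD-1 inhibitor library and 106 in the acupuncture library. That is 0.0686 and 1.68 scaled CPM, a ratio of 24.6 (11.5 to 62.6), the widest difference among the 34. Serpinc1, antithrombin, had 35 and 88 counts and a ratio of 4.08 (2.73 to 6.22). Its row needs care, because 34.4% of its exon sequence overlaps Zbtb37 on the opposite strand and 58.4% of its 100-base words occur in another gene. Zbtb37 had 2695 and 1498 counts and a ratio of 0.902, and no source used here says whether reads were counted by strand. Serpind1, heparin cofactor II, had 57 and 52 counts with a ratio of 1.48 (0.997 to 2.19). These genes are known chiefly as liver genes, and 12 liver markers were listed beside them. Their sum was 233 and 110 scaled CPM, carried mainly by Trf, which other tissues also make, with 21008 and 5678 counts. Of the 8 that met the minimum, Alb was called higher, Ambp and Trf were called lower and the remaining 5 were neither; the list's median log2 ratio was -0.76. Alb had 19 and 42 counts, Apoa1 had 2 and 0, and Ttr had none. The part of liver RNA in these values was not tested.

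Serping1, the C1 inhibitor that blocks the first proteases of the classical and lectin complement pathways, was among the abundant members. Its 10971 and 12857 counts corresponded to 107 and 204 scaled CPM, a ratio of 1.90 (1.85 to 1.95). The difference was just under 2-fold, and the ratio passed 2-fold when the libraries were scaled by total counts. The proteases it controls had smaller differences, in both directions. Of the classical pathway, C1s1 had a ratio of 1.50 (1.45 to 1.54) and C1ra one of 1.25 (1.21 to 1.29). Of the lectin pathway, Masp1 had a ratio of 0.779 (0.752 to 0.808) and Masp2 one of 0.712 (0.574 to 0.879). Of 9 tested complement genes, only C2 was called, at 21.2 against 9.04 scaled CPM and a ratio of 2.34 (2.15 to 2.55). C1qa, the most abundant of them, had a ratio of 0.859 (0.844 to 0.873). The median log2 ratio of the list was 0.05.

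Every copy of the alpha-1-antitrypsin gene that met the minimum was higher with acupuncture. Alpha-1-antitrypsin is the abundant plasma inhibitor of neutrophil elastase, and the mouse carries several near-identical genes for it. Serpina1b had 263 counts in the PD-1 inhibitor library and 1137 in the acupuncture library, or 2.58 and 18.1 scaled CPM, a ratio of 7.01 (6.13 to 8.05). Serpina1a had 52 and 226 counts with a ratio of 7.05 (5.20 to 9.73), and Serpina1c had 40 and 191 counts with a ratio of 7.75 (5.49 to 11.2). Serpina1d had 22 and 126 counts with a ratio of 9.29 (5.88 to 15.4), which was 14.7 when the deeper library was thinned, and Serpina1e had 15 and 56 counts with a ratio of 6.06 (3.38 to 11.5). The 5 intervals overlapped, so the copies could not be ranked by ratio. Serpina1b carried most of the reads in both libraries. Because the copies share sequence, reads can be split or lost among them: the share of 100-base words also found in another gene was 69.3% for Serpina1c, 49.9% for Serpina1a, 29.3% for Serpina1d, 20.6% for Serpina1b and 14.8% for Serpina1e. Summed, the 5 had 392 and 1736 counts, a ratio of 7.19 (6.44 to 8.04), which does not depend on how reads were divided among them.

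The coding sequences of Serpina1b, Serpina1c, Serpina1d and Serpina1e are 96.3% to 96.7% identical in pairs, and Serpina1a is 91.4% to 93.3% identical to the others. The differences gather where the proteins differ in target choice. The stretch of 60 coding bases shown, positions 1101 to 1160 of the 1239 in Serpina1b, encodes the reactive centre loop, and 18 of its 60 bases vary among the copies, against 6.94% over the whole coding sequence. It is shown because variable bases are dense in it, though other coding positions also tell the copies apart. Capitals mark bases that differ from Serpina1b, and the sequences are from GENCODE M21 transcripts.
Serpina1b: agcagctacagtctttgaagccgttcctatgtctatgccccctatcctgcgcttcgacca
Serpina1a: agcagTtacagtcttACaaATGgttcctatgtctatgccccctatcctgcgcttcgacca
Serpina1c: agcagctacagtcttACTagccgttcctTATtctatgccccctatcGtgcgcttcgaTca
Serpina1d: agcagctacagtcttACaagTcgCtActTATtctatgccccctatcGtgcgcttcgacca
Serpina1e: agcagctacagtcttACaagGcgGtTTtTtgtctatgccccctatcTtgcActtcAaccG
Serpina1a differs from Serpina1b at 6 of these bases, Serpina1c at 8, Serpina1d at 9 and Serpina1e at 11.

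**Figure D3:**
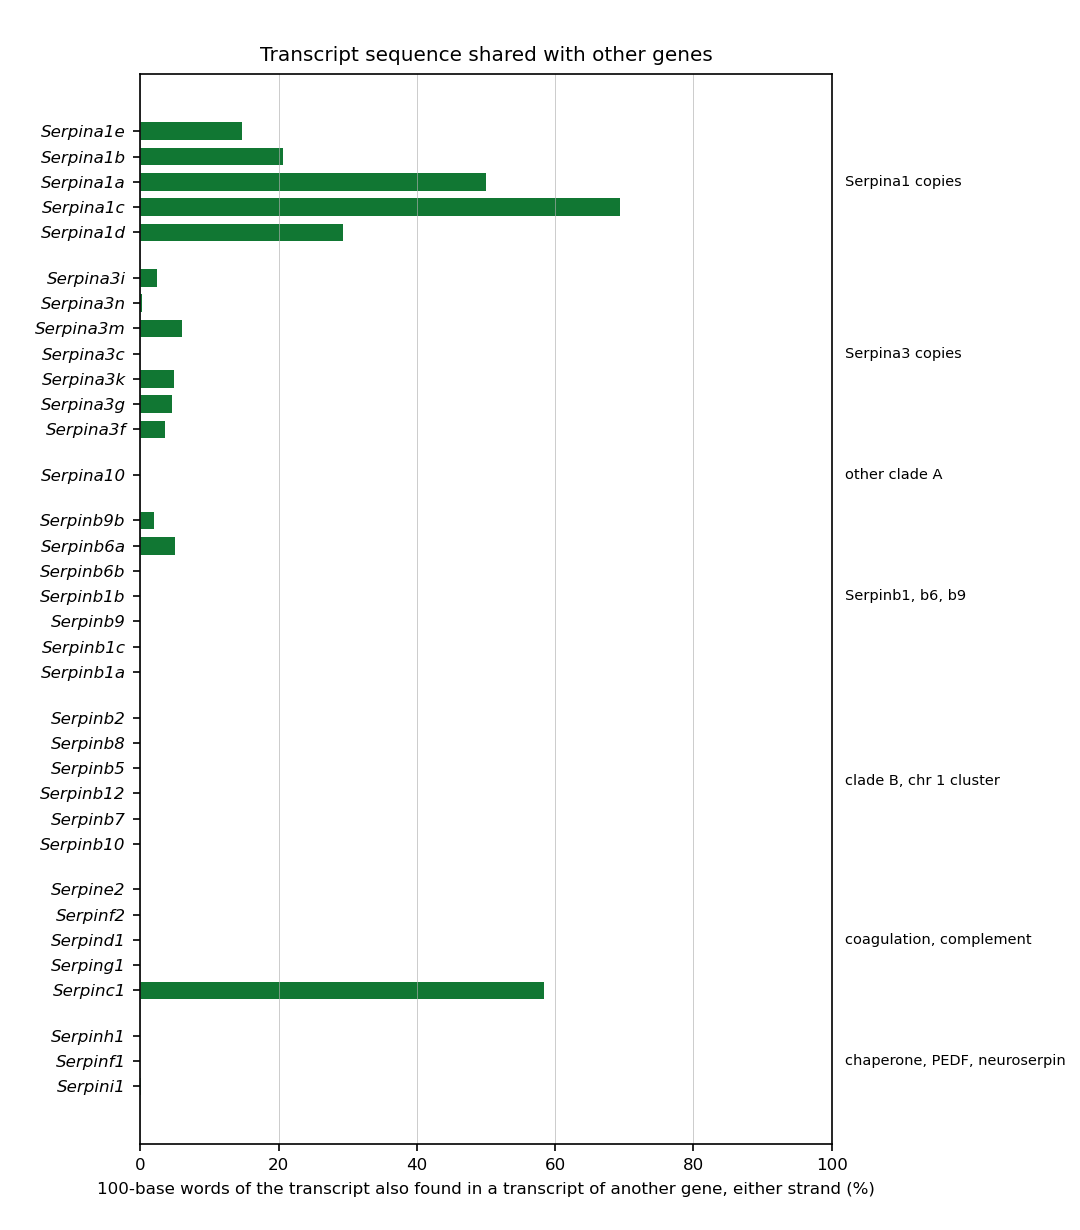
Share of each serpin transcript's 100-base words that also occur, on either strand, in a transcript of another gene, in percent; each bar is 1 of the 34 serpins, grouped by role. Only the Serpina1 copies, from 14.8% to 69.3%, and Serpinc1 at 58.4% have bars longer than 10%.

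The Serpina3 genes, which the mouse has expanded from a single ancestor of human alpha-1-antichymotrypsin, differed from copy to copy. All 7 had a ratio above 1, and 3 were called higher. Serpina3g encodes an intracellular inhibitor of cathepsins known from activated lymphocytes and macrophages; it had 4095 and 7715 counts, 40.1 and 123 scaled CPM, a ratio of 3.06 (2.94 to 3.18). Its neighbour Serpina3f had 302 and 705 counts, 2.96 and 11.2 scaled CPM, a ratio of 3.79 (3.31 to 4.35). Serpina3k had 26 and 35 counts and a ratio of 2.18 (1.28 to 3.78), and summed with Serpina3m, whose coding sequence is 91.8% identical, the ratio was 1.58. Serpina3n, a secreted inhibitor induced in the acute-phase response, was the most abundant copy. Its 17058 and 14232 counts were 167 and 226 scaled CPM, a ratio of 1.35 (1.32 to 1.38). The intervals of Serpina3g and Serpina3f lay above that of Serpina3n without overlap. Serpina3c, Serpina3m and Serpina3i had ratios of 1.70, 1.56 and 1.19. Among these copies Serpina3m shared most sequence with other genes, 6.09% of 100-base words and 19.1% of 50-base words; in Serpina3g the shares were 4.64% and 16.0%, and no source used here names the read length.

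The promoters of 5 Serpina3 genes share a conserved stretch, and it is shown because the copies differ there within a known motif. STAT transcription factors, which act after cytokines such as interferons and interleukin-6, bind sites of the form TTCNNNGAA. Capitals mark the 9 bases at that site; the sequences are RefSeq promoter windows of GRCm38.p6.
Serpina3g, chr12:104236092-104236146, plus strand: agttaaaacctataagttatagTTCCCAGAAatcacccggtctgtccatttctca
Serpina3f, chr12:104214401-104214455, plus strand: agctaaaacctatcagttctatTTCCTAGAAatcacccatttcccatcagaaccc
Serpina3i, chr12:104262998-104263052, plus strand: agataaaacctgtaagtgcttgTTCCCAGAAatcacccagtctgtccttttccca
Serpina3n, chr12:104406563-104406617, plus strand: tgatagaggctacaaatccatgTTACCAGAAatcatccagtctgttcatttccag
Serpina3c, chr12:104153960-104154014, minus strand: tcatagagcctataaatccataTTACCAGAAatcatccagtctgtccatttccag
Positions within the 9 bases are counted from 1 at the 5′ end, with the base of Serpina3g first. Serpina3f carries C5T and keeps the motif, Serpina3i has no difference, and Serpina3n and Serpina3c carry C3A and do not match it. The 3 copies with the motif had ratios of 3.06, 3.79 and 1.19 and the 2 without it 1.35 and 1.70, so holding these letters did not separate the copies by ratio. The motif was chosen after the values were seen, and it was found, on either strand, in 7.02% of 32851 RefSeq windows of the 250 bases before a gene start. Among 34 windows of 29 serpin genes it was in 6, or 17.6%, a share that counts these related copies separately. These windows belong to 5 genes, because overlapping windows of Serpina3f hold the same site.

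Genes of the acute-phase and interleukin-6 response, the setting in which Serpina3n and the Serpina1 copies are usually described, moved in both directions. Of 21 tested genes, 5 were called higher and 4 lower, with a median log2 ratio of -0.08 that was 0.02 when the libraries were scaled by total counts. Orm1, the plasma protein orosomucoid, had 248 and 854 counts and a ratio of 5.59 (4.85 to 6.46). Hp, haptoglobin, which binds free haemoglobin and is made in fat as well as liver, had 185 and 918 scaled CPM and a ratio of 4.95 (4.87 to 5.03). Saa3, a serum amyloid gene of macrophages and epithelium, was 3.32-fold lower (3.20 to 3.45). Adipocyte markers, 11 of 12 called higher, and skeletal muscle markers, 12 of 12 called higher, moved with the Serpina1 and Hp values. So did T cell markers, 9 of 9 called higher, B cell markers, 10 of 10, and lymph node markers, 9 of 10. The part of each list in these values was not tested.

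Among the clade B members that inhibit granule proteases inside cells, 2 were called higher and 1 lower of 7. Serpinb1a protects leukocytes from neutrophil elastase, cathepsin G and proteinase 3; it had 1635 and 2724 counts, 16.0 and 43.3 scaled CPM, and a ratio of 2.70 (2.54 to 2.88). Neutrophil markers were lower in the same library. Serpinb1c, a little-expressed copy, had 12 and 17 counts and a ratio of 2.30 (1.03 to 5.27), and Serpinb1b had 25 and 22 counts with a ratio of 1.43. Serpinb9, the granzyme B inhibitor of cytotoxic lymphocytes and dendritic cells, had 3670 and 3852 counts, 35.9 and 61.2 scaled CPM, and a ratio of 1.70 (1.63 to 1.78), short of 2-fold. Its copy Serpinb9b, 85.5% identical in coding sequence, went the other way: 245 and 61 counts, 2.40 and 0.970 scaled CPM, or 2.48-fold lower (1.86 to 3.33). The intervals of these copies lay on opposite sides of 1. Serpinb9b was less than 2-fold lower when levels were scaled to the epithelial markers. Serpinb6a, a broad inhibitor of trypsin-like proteases, was the most abundant clade B member, with 37345 and 19497 counts, 366 and 310 scaled CPM and a ratio of 0.847 (0.833 to 0.862). Genes on the opposite strand overlap 29.3% of its exon sequence. Serpinb6b had 1321 and 927 counts and a ratio of 1.14.

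The granule proteases themselves, listed together with the granule proteoglycan Srgn, were mostly between the limits. Of 13 tested genes, Gzmk and Gzma, granzymes of T and natural killer cells, were called higher, and none was called lower. The ratios of Gzmk and Gzma were 4.61 (3.39 to 6.35) and 2.50 (2.18 to 2.87). Srgn, which is not a protease, had the lowest ratio of the list, 0.529 (0.514 to 0.546). Gzmb, the target of Serpinb9, had 688 and 812 counts and a ratio of 1.91 (1.73 to 2.12), close to the 1.70 of its inhibitor. The proteases that Serpinb1a inhibits were scarce: Elane had 13 and 8 counts, Ctsg 16 and 17, and Prtn3 279 and 148, with a ratio of 0.861 for Prtn3. Ctsc, which activates these granule proteases, was the most abundant of the list, with a ratio of 0.967 (0.950 to 0.984). Serpina3g is known to inhibit cysteine cathepsins. The list of 7 cathepsins held, beside these, the aspartic protease Ctsd, with a ratio of 0.742 (0.734 to 0.750). Only Ctsk, a collagen-degrading cysteine cathepsin, was called, with a ratio of 2.06 (1.98 to 2.14). Ctsb, the most abundant, had a ratio of 0.890 (0.882 to 0.897), and the median log2 ratio of the list was -0.36. T cell markers, 9 of 9 called higher, moved with the granzyme, Serpinb1a and Serpinb9 values. Cytotoxic lymphocyte markers, 5 of 10 called higher, also moved with Serpinb1a and Serpinb9. That list includes Gzma, Gzmb and Gzmk, so it is not separate from the granzyme values. B cell, adipocyte and skeletal muscle markers were mostly called higher too. The part of each list in these values was not tested.

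The clade B members of the chromosome 1 cluster were led by Serpinb2, which was lower with acupuncture. Serpinb2 encodes PAI-2, a urokinase inhibitor that activated macrophages and keratinocytes produce in quantity and largely keep inside the cell. It had 687 counts in the PD-1 inhibitor library and 65 in the acupuncture library, or 6.73 and 1.03 scaled CPM, and was 6.51-fold lower (5.05 to 8.54). It was the only one of the 34 called at least 4-fold lower, and 7 were called at least 4-fold higher, against 1.4% and 3.63% of all rows. Its neighbour Serpinb10, a serpin of blood cells, had 12 and 17 counts and a ratio of 2.30 (1.03 to 5.27), and the exons of these genes overlap on the same strand, over 12.4% of the exon sequence of Serpinb2 and 8.34% of that of Serpinb10. Serpinb5, maspin, known from mammary epithelium and myoepithelium, had 1376 and 1009 counts, 13.5 and 16.0 scaled CPM and a ratio of 1.19 (1.10 to 1.29). Serpinb8, an inhibitor of furin, had 557 and 314 counts and a ratio of 0.915, and Serpinb7 and Serpinb12 had ratios of 1.71 and 1.23 on 39 and 51 counts in all. Neutrophil markers, 9 of 12 called lower with a median log2 ratio of -2.17, moved with the Serpinb2 value. Of 12 macrophage markers 2 were called lower, Arg1 and Spp1, and 10 were neither; the list's median log2 ratio was -0.33. The part of either list in the Serpinb2 value was not tested. Of 15 listed markers of squamous epithelium and skin, 7 met the minimum. Of these 7, Ivl and Sprr1a were called higher and 5 were neither, with a median log2 ratio of -0.11. Ivl had 2 and 44 counts and Sprr1a 17 and 21. Sbsn, the most abundant of the list, had 1017 and 630 counts, and Krt17 had 560 and 295. Krt1, Krt6a, Krt6b, Flg and Sprr1b were at 0 in both libraries.

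Serine proteases of epithelium, listed together with the protease inhibitors Spint1 and Spint2, moved in both directions. Of 16 tested genes, Klk6 and Tmprss4 were called higher, and Tmprss2 and Prss22 were called lower. The ratios of Klk6 and Tmprss4 were 4.40 (2.33 to 8.80) and 2.90 (2.37 to 3.56). The inhibitors were not called, with ratios of 1.07 (1.03 to 1.11) for Spint1 and 0.527 (0.515 to 0.538) for Spint2. Tmprss2, a membrane protease of secretory epithelium, had 79 and 6 counts and was 8.11-fold lower (3.57 to 22.8). Prss22, tryptase epsilon, had 9522 and 2175 counts and was 2.70-fold lower (2.58 to 2.83). Htra1, a secreted protease and the most abundant of the list, had a ratio of 1.06 (1.04 to 1.08).

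The remaining members are a chaperone, a secreted angiogenesis inhibitor and a neuronal protease inhibitor. Serpinh1, known as HSP47, holds procollagen in its folded state in the endoplasmic reticulum, and had 90748 and 44582 counts, 889 and 709 scaled CPM. It was 1.25-fold lower (1.24 to 1.27). Of 22 genes for collagens and collagen-folding enzymes, 16 had a ratio below 1, against 9333 of all 18687 rows that met the minimum. The summed level of that list was higher in the acupuncture library, 12904 and 14075 scaled CPM, a ratio of 1.09. With levels scaled to the epithelial markers, Serpinh1 had a ratio of 1.17 and the list a median log2 ratio of 0.29. Among the collagens the ratios lay on both sides of 1: Col4a2 had a ratio of 0.669 (0.657 to 0.681), while Col3a1, the most abundant collagen gene, had a ratio of 1.57 (1.57 to 1.58) and Col1a1 one of 1.01 (0.998 to 1.01). Of the 22, only P4ha2, a prolyl hydroxylase of collagen, was called, at 10992 and 2817 counts and 2.40-fold lower (2.31 to 2.51), with a median log2 ratio of -0.26 over the list. Fibroblast markers stood at 7724 and 10317 scaled CPM, with 1 of 12 called higher. That list shares Col1a1, Col1a2 and Col3a1 with the collagen list, and these made up most of its sum, Col3a1 by itself 3272 and 5150. Serpinf1, the secreted angiogenesis inhibitor PEDF, had 9982 and 8036 counts, 97.8 and 128 scaled CPM and a ratio of 1.31 (1.27 to 1.35). Serpini1, neuroserpin, an inhibitor of tissue plasminogen activator in neurons, had 82 and 132 counts, 0.803 and 2.10 scaled CPM, and a ratio of 2.61 (1.97 to 3.48).

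The members were placed in their order along the chromosomes. In the chromosome 12 cluster of 24 annotated serpin genes, 13 were members, of which 9 were called higher and none lower. Serpina10 and the 5 Serpina1 copies lie toward one end, Serpina3f and Serpina3g are neighbours farther along, Serpina3k is called apart from them, and Serpina3m and Serpina3n, both between the limits, close the other end. The chromosome 13 cluster of 15 genes had 7 members, with 2 called higher and 1 lower, and the chromosome 1 cluster of 12 had 6 members, with 1 called higher and 1 lower. In both of these clusters a lower gene stood next to a gene with a ratio above 1: Serpinb2 at 0.154 beside Serpinb10 at 2.30, and Serpinb9b at 0.404 beside Serpinb9 at 1.70. Gene order was taken from GENCODE M21.

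**Figure D4:**
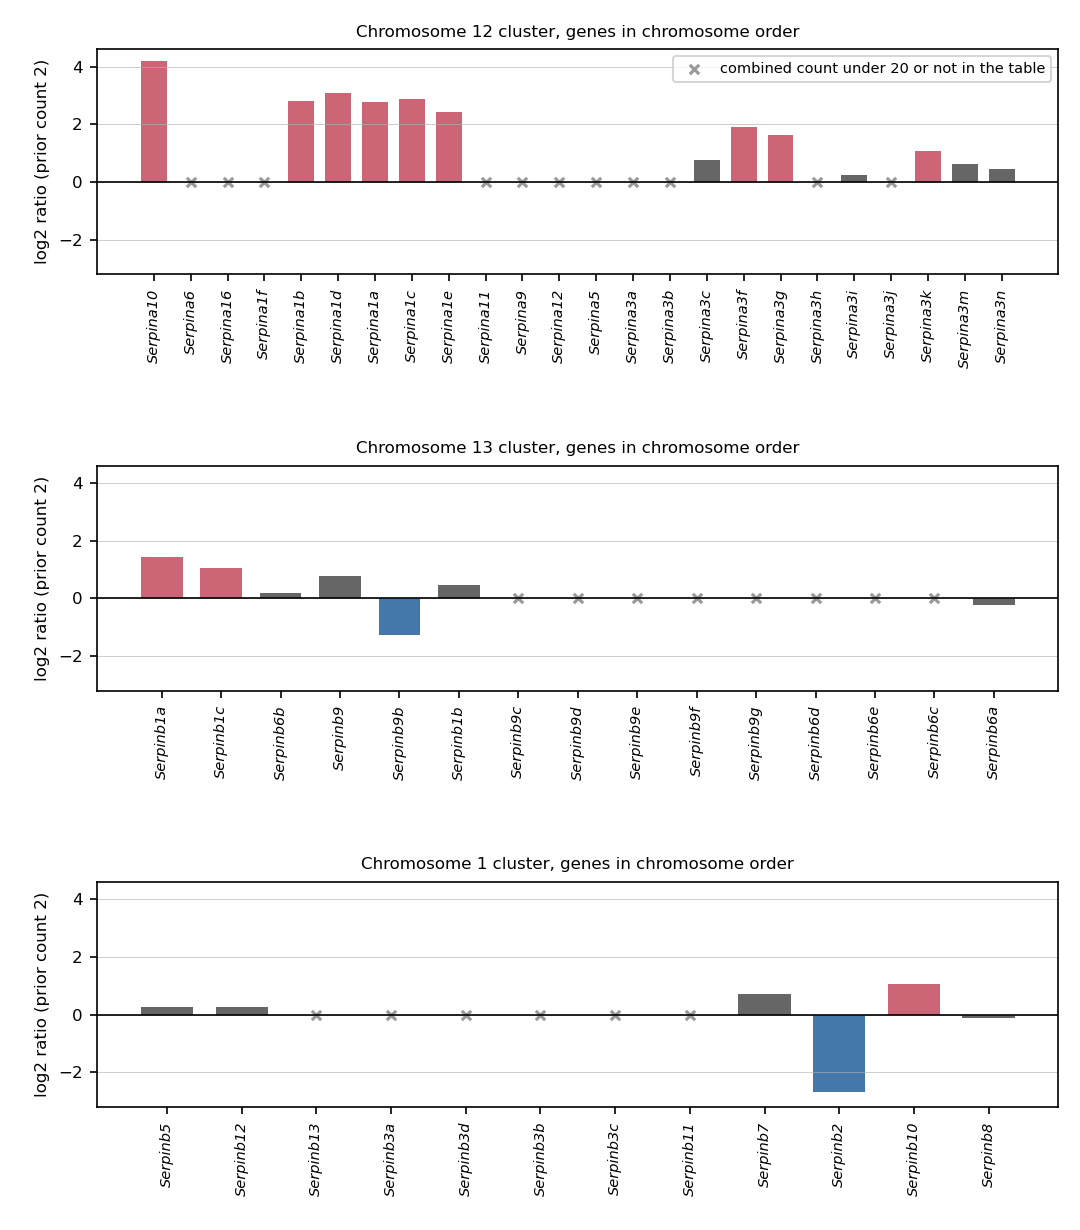
Log2 ratio of acupuncture to PD-1 inhibitor, with a prior count of 2, for the serpin genes of the chromosome 12, 13 and 1 clusters in their order along the chromosome; red bars are at least 2-fold higher, blue bars at least 2-fold lower, grey bars lie between and crosses are genes under the count minimum or not in the table. No bar of the chromosome 12 cluster is below 0, and Serpinb2 in the chromosome 1 cluster has the lowest bar at -2.68.

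Of the 28 serpin rows under the minimum, 19 had no count in either library, which allows a level of up to 0.0294 scaled CPM in the PD-1 inhibitor library and 0.0477 in the acupuncture library (3 counts). These include the squamous genes Serpinb3a, Serpinb3b, Serpinb3c and Serpinb3d, and Serpina6, the liver carrier of glucocorticoids. The members nearest the minimum were Serpinb10 and Serpinb1c at 29 counts in all and Serpinf2 at 31, and the nearest rows outside it were Serpina9 at 15, Serpinb6c at 14 and Serpine3 at 12. Serpina12, the adipokine vaspin, had 2 and 5 counts.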

How the data were processed

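RNA of mouse breast tumour tissue was sequenced as 1 library per condition. The values used are raw counts per gene as deposited, and per the labels' protocols they come from 1.3 µg of total RNA and a SMARTER mRNA-Seq kit. The authors' genome build was GRCm39 (mm39), per the submitters' processing notes; aligner, counter, annotation and use of strand: not given in the sources used here. No per-sample column was left unmapped.

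Counts were scaled with edgeR 4.0.16 TMM factors (0.966 and 1.04) in R 4.3.3. Rows with a combined count of at least 20, here termed tested, were called where the ratio reached 2-fold in either direction and its interval excluded 1. No interval was compared with the 2-fold limit. The interval of each ratio was an exact binomial (Clopper-Pearson) 95% interval from scipy 1.17.1, and log2 ratios carried a prior count of 2. Intervals, and limits of 3 counts where none was found, cover counting error only, since no molecular identifier separates PCR copies. Of the 35 members by the rule, 1 is not reported here and is left out of the counts and medians of members. The steps were tested on simulated data. With 1 library per condition no p-value was computed.

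Full values are given for called members, for the 10 most abundant members and, from each partner list, for up to 3 called genes by size of ratio and the most abundant gene; other genes are named because they are the direct target, copy or neighbour of a member, and were chosen after their values were seen. The members and lists were chosen with earlier results of these data known. Alternatives were total counts, DESeq2 1.42.0 size factors, upper quartile, scaling to epithelial markers, thinning of the deeper library, other minimums, fold limits and prior counts, and summed copies. Coding sequences and gene order are from GENCODE M21, with all 34 members matched, and promoter windows from RefSeq on GRCm38.p6, with 29 matched. These differ from the authors' build, so no coordinate was joined to the counts.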

Additional observations from a re-analysis of the deposited data

How the results depend on the processing

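Scaling by total counts, DESeq2 size factors or upper quartile, thinning the deeper library, count minimums of 1 or 100, and dropping the interval rule gave 10 to 15 serpins called higher and 2 called lower. The median log2 ratio lay between 0.64 and 0.83 under these settings that touch it and under prior counts of 0.5 or 5. Thinning moved the ratio of Serpina1d from 9.29 to 14.7. Scaling to the epithelial markers gave 21 higher and 1 lower, with a median of 1.25. Serpinb9b was no longer called lower, and the ratios of Serpinh1 and Serpinb6a rose above 1, to 1.17 and 1.24. This scaling also turned the median log2 ratio of several lists from below 0 to above 0. The macrophage markers' median went from -0.33 to 0.22, the cathepsins' from -0.36 to 0.19 and the collagen list's from -0.26 to 0.29. Those of the squamous, acute-phase and coagulation lists became 0.44, 0.46 and 0.49. Granule proteases (0.50) and mast cell markers (0.33) also ended above 0. Neutrophil, liver and endothelial medians stayed below 0, at -1.64, -0.32 and -0.04. A 4-fold limit left 7 higher and 1 lower, against 3.63% and 1.4% of all rows. Summing copies with at least 90% coding identity, chosen after seeing the data in place of the planned protein identity, which was not run, gave 9 higher and 2 lower of 29 and a median of 0.55; fewer units are counted there by construction. With the thinned library, Serpina3k, Serpinb10 and Serpinb1c were no longer called; they had 29 to 61 counts in all, where depth limits the call. No paired analysis was possible because each condition has 1 library.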

Other observations

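Other motifs were searched on both strands in the 250 bases before the start, in 34 RefSeq windows of 29 serpin genes and in all 32851 windows, and were likewise chosen after the values were seen. The AP-1 motif TGACTCA was found in 6 serpin windows, 17.6% against 4.46% of all windows, and these include those of Serpina1a, Serpina1b, Serpina1c and Serpina1d, as well as Serpinb7 and Serpinb8. The C/EBP motif TTGCNNAA was in 8 windows of 6 genes, 23.5% against 9.56%, and the hypoxia motif ACGTG in 4 windows, 11.8% against 16.6%. Copies that share a promoter are counted separately, so these shares describe related sequences. A match is a run of letters and not a measured site.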
